A study of Mus musculus with 6 samples.

Results

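The promoters examined here belong to the genes for the TCF transcription factors and their partners at β-catenin: Tcf7, Tcf7l1, Tcf7l2, Bcl9, Pygo1, Pygo2 and Cby1. They were chosen by role, and every promoter sequence whose gene symbol, or whose accession's current symbol, was among these 7 genes was taken. The rule found 6 sequences for 5 of the genes among the 26200 promoter sequences with a value, which leaves 26194 others. Pygo2 had 2 sequences, under accessions BC025640 and BC025531, while Tcf7, Tcf7l1, Tcf7l2 and Cby1 had 1 each. The occupancy of Bcl9 and Pygo1 was not analysed here, and only their RefSeq windows enter, in the sequence counts below. Tcf7l1 stands in the files under its old symbol Tcf3 and Cby1 as Pgea1, and both were matched by accession.

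Promoter occupancy was measured by chromatin immunoprecipitation and promoter arrays (ChIP-chip) in C57BL/6J mouse keratinocytes, the main cells of the epidermis. There were 3 arrays of Plakoglobin ChIP DNA and 3 of β-catenin ChIP DNA, numbered 1 to 3 within each antibody, and each array set Cy5-labelled ChIP DNA against Cy3-labelled input DNA. In both groups the cells had spent 4 days in high-calcium medium after confluence, which starts their terminal differentiation. Both were crosslinked with 2 mM DSG, which links protein to protein, and 1% formaldehyde, and chromatin was sheared to 500 bp. Cells kept in low calcium, cells lacking either protein and arrays with a mock antibody were not analysed here. The labels name neither the source of the keratinocytes nor separate cultures, so the p-values measure only the spread between these arrays, which may be technical. Occupancy of a promoter is not expression of its gene, so keratinocyte markers could not be used to check the cell type.

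TCF factors sit on DNA at Wnt-responsive genes and turn them on when β-catenin binds them, while without it they recruit Groucho/TLE corepressors. BCL9 links β-catenin to Pygopus proteins, which read methylated histone tails, and Chibby, the product of Cby1, binds β-catenin and blocks its contact with TCF. Plakoglobin, encoded by Jup, is the closest relative of β-catenin, is a main part of desmosomes, and can also bind TCF factors. In skin, Tcf7l1 and Tcf7l2 are best known from hair follicle stem cells, where Tcf7l1 acts mainly as a repressor, and Tcf7 is itself a widely used Wnt target.

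The sequence just upstream of the start sites is shown for Tcf7l1, which had the only deposited peak among these genes, and for both start sites of Tcf7l2, which had the highest single ratio. The sequences are the 250 bases before each start site in RefSeq (GRCm38.p6, 5′ to 3′ on the gene's strand). How far the array's own sequence for each gene reaches is not known. Nor is it known here which of the Tcf7l2 start sites the array's sequence belongs to. Capitals mark CpG pairs in the first and second sequences and, in the third, a TCF core word.
Tcf7l1, chr6:72789046-72789295, minus strand: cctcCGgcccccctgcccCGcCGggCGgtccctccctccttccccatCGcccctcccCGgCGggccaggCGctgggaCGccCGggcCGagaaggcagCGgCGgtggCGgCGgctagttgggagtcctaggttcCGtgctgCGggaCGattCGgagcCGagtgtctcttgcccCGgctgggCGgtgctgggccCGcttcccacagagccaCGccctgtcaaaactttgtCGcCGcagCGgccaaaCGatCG
Tcf7l2 window 1, chr19:55741560-55741809, plus strand: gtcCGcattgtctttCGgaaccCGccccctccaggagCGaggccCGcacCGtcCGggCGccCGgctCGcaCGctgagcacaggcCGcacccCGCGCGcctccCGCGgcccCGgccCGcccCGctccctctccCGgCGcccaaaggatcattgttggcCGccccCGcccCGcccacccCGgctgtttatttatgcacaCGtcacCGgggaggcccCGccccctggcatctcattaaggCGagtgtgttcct
Tcf7l2 window 2, chr19:55895071-55895320, plus strand: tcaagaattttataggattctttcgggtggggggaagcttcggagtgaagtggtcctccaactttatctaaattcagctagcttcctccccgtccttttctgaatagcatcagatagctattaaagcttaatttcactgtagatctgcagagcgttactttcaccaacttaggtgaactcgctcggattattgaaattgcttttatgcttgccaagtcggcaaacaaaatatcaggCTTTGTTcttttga

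The Tcf7l1 window held 29 CpG pairs at 73.6% GC, and the first Tcf7l2 window held 30 at 72.8% GC. The second Tcf7l2 window was AT-rich by comparison, with 7 CpG pairs at 40.8% GC. Over the 11 RefSeq windows of all 7 genes the CpG count ran from 7 to 41. All 11 lay above the median of 6 over 32851 windows, as 46.3% of all windows did, and 10 of 11 lay above the median GC content of 52.4%. The TCF core words (the word CTTTGAA, the word CTTTGAT, the word CTTTGTA and the word CTTTGTT) were searched on both strands, and 2 of them cannot start at the same base. They stood in 1 of the 11 windows, as CTTTGTT starting at position -14 relative to the second Tcf7l2 start site, against 14.8% of all windows. A match is a description of the letters and not a measured binding site.

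Values below are log2 ratios of ChIP over input, the mean over the probes of a promoter, with the array's median promoter set to 0. Percentiles rank a promoter among all 26200 on the same array. Means are given ± SD over the 3 arrays of an antibody. Arrays numbered 2 were the noisiest with both antibodies. The median SD over a promoter's probes was 0.36, 0.66 and 0.30 with Plakoglobin (arrays 1, 2 and 3) against 0.27, 0.75 and 0.29 with β-catenin in the same order. Before centring, the array medians lay between 0.194 and 0.447 for Plakoglobin and between 0.148 and 0.445 for β-catenin, and they are also highest on the arrays numbered 2.

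Across the 5 genes the promoters lay close to the array median with both antibodies. Plakoglobin means ran from -0.02 to 0.22 and β-catenin means from 0.01 to 0.48. The Plakoglobin mean was above 0 at 5 of 6 sequences, where 56.6% of all promoters and 61.0% of those with a gene name were. The β-catenin mean was above 0 at 6 of 6, against 51.4% of all promoters and 55.5% of the named ones. Over single arrays, 26 of the 36 values were above 0. None of the 6 sequences passed limma's test against the array median (Benjamini-Hochberg over 26200, threshold 0.05). Their adjusted p ran from 0.696 to 0.952 with Plakoglobin and from 0.894 to 0.996 with β-catenin. Over all promoters 0.0% were called with either antibody. At an unadjusted p under 0.05 there were 0 of the 6 sequences with either antibody, where 3.78% of all promoters reached it with Plakoglobin and 1.76% with β-catenin. The lowest unadjusted p among the 6 was 0.255 with Plakoglobin and 0.137 with β-catenin. With the array number as a block the 6 sequences still gave 0 at that limit, while over all promoters the block gave 3102 with Plakoglobin, against 990 without it, and 2469 with β-catenin, against 460 without it. The block takes the spread between array numbers out of the error. Its p-values for a mean against the array median therefore leave that spread out, and its larger counts are not stronger evidence.

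**Figure D1:**
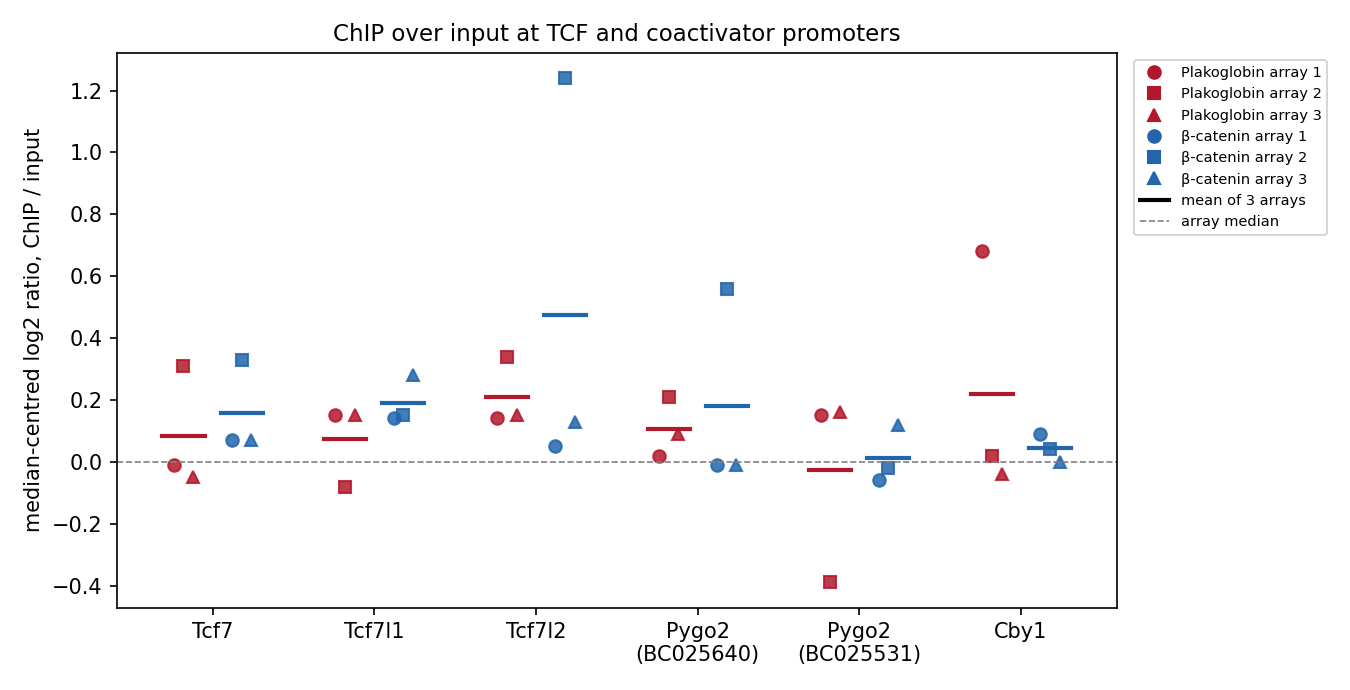
Median-centred log2 ratio of ChIP over input (vertical axis) at the 6 promoter sequences (horizontal axis). Red points are Plakoglobin arrays and blue points β-catenin arrays, with the array number shown by shape and bars at the mean of 3 arrays. Most points lie within 0.4 of the array median, and the 3 highest are Tcf7l2 on β-catenin array 2 (1.24), Cby1 on Plakoglobin array 1 (0.68) and Pygo2 (BC025640) on β-catenin array 2 (0.56).

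Tcf7l2, which encodes the TCF factor also called TCF4, was the only one of the 6 sequences above 0 on all 6 arrays, as 6.99% of all promoters and 8.06% of the named ones were. Its ratios were 0.14, 0.34 and 0.15 with Plakoglobin (arrays 1, 2 and 3) and 0.05, 1.24 and 0.13 with β-catenin in the same order. The Plakoglobin values kept within a narrow range, from the 69.2 to the 77.1 percentile, whereas β-catenin array 2 stood far above the other β-catenin arrays. On that array Tcf7l2 ranked at the 98.9 percentile, against 67.6 and 74.2 on β-catenin arrays 1 and 3. The SD over its probes there was 0.93, above the array's median probe SD of 0.75, and the median over its probes was 1.21, close to the mean. The promoter averaged 0.21 ± 0.11 with Plakoglobin and 0.48 ± 0.66 with β-catenin (SD, n = 3 each), and without β-catenin array 2 the β-catenin mean was 0.09. With quantile normalization between arrays the β-catenin mean was 0.94. Neither mean passed limma's test, and no peak was listed at Tcf7l2 on any of the 6 arrays.

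Tcf7l1, the repressor-like TCF factor, had ratios of 0.15, -0.08 and 0.15 with Plakoglobin (arrays 1, 2 and 3) and 0.14, 0.15 and 0.28 with β-catenin in the same order. Plakoglobin array 2 was just under 0, all 3 β-catenin values were above it, and the groups overlapped. The Plakoglobin ranks were the 70.7, 43.9 and 77.7 percentiles, and the β-catenin ranks the 87.7, 61.7 and 85.4 percentiles. The mean was 0.08 ± 0.13 with Plakoglobin and 0.19 ± 0.07 with β-catenin (SD, n = 3 each). The medians over its probes were 0.10, -0.01 and 0.16 on the Plakoglobin arrays and 0.19, 0.49 and 0.14 on the β-catenin arrays, where array 2 stood higher than by the mean over probes. With quantile normalization the β-catenin mean was 0.32.

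Tcf7, the TCF factor that is also a Wnt target, had -0.01, 0.31 and -0.05 with Plakoglobin (arrays 1, 2 and 3) and 0.07, 0.33 and 0.07 with β-catenin in the same order. With each antibody the high value came from the array numbered 2, and the other Plakoglobin arrays lay just below 0. In ranks the 2 high values were unremarkable, at the 70.8 percentile with Plakoglobin and the 73.3 percentile with β-catenin, and ratios on those arrays were widely spread. The mean was 0.08 ± 0.20 with Plakoglobin and 0.16 ± 0.15 with β-catenin (SD, n = 3 each), and without Plakoglobin array 2 the Plakoglobin mean was -0.03.

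**Figure D2:**
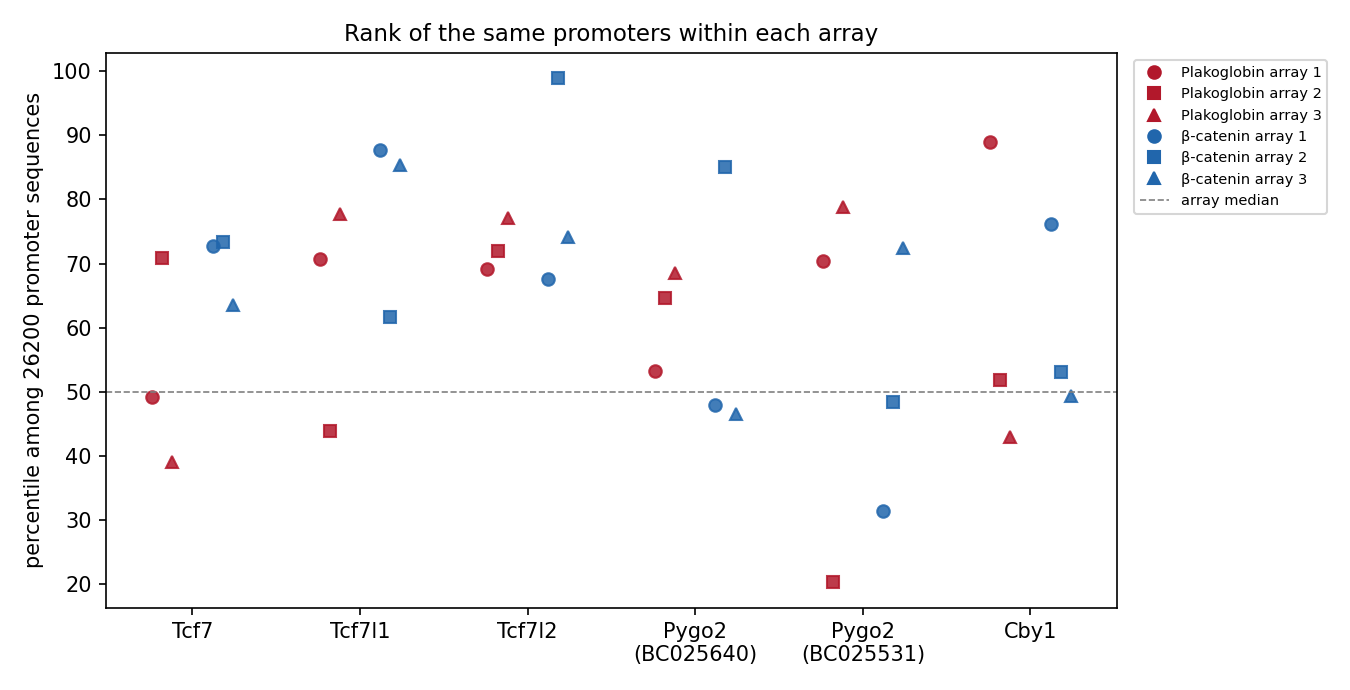
Percentile of each of the 6 sequences among the 26200 promoters of the same array (vertical axis), by sequence (horizontal axis), with antibody shown by colour and array number by shape. Ranks remove the wider spread of the arrays numbered 2. Tcf7l2 stays between the 67.6 and 98.9 percentiles, while Pygo2 (BC025531) ranges from the 20.3 to the 78.9 percentile.

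Pygo2 encodes a Pygopus coactivator, and its 2 sequences are next to each other in the array's numbering; whether their regions overlap is not known here. Under BC025640 the ratios were 0.02, 0.21 and 0.09 with Plakoglobin (arrays 1, 2 and 3) and -0.01, 0.56 and -0.01 with β-catenin in the same order. Under BC025531 they were 0.15, -0.39 and 0.16 with Plakoglobin (arrays 1, 2 and 3) and -0.06, -0.02 and 0.12 with β-catenin in the same order. The 2 sequences disagreed most on the arrays numbered 2, where BC025640 was the higher of the pair with both antibodies. BC025640 averaged 0.10 ± 0.09 with Plakoglobin and 0.18 ± 0.33 with β-catenin (SD, n = 3 each). BC025531 averaged -0.02 ± 0.32 with Plakoglobin and 0.01 ± 0.09 with β-catenin (SD, n = 3 each). For BC025640 the β-catenin mean rested on array 2, without which it was -0.01. For BC025531 the Plakoglobin mean rested on array 2 as well, without which it was 0.16. The SD over the probes of BC025640 on Plakoglobin array 2 was 1.07, above that array's median of 0.66.

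Cby1, which encodes the β-catenin antagonist Chibby, had 0.68, 0.02 and -0.04 with Plakoglobin (arrays 1, 2 and 3) and 0.09, 0.04 and 0.00 with β-catenin in the same order. Only Plakoglobin array 1 stood out, at the 89.0 percentile, and the other 5 values lay within 0.1 of the array median. The SD over its probes on that array was 0.91, against 0.56 and 0.25 on Plakoglobin arrays 2 and 3, and the median over its probes was 0.43. The mean was 0.22 ± 0.40 with Plakoglobin and 0.04 ± 0.04 with β-catenin (SD, n = 3 each), and without Plakoglobin array 1 the Plakoglobin mean was -0.01.

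Ordered by mean, the Plakoglobin ratios ran from Cby1 and Tcf7l2 through Pygo2 (BC025640), Tcf7 and Tcf7l1 to Pygo2 (BC025531). The β-catenin order was Tcf7l2, Tcf7l1, Pygo2 (BC025640), Tcf7, Cby1 and Pygo2 (BC025531). Pygo2 (BC025531) was last in both. No 2 neighbours in either order lay further apart than the larger of their SDs, so neither order is resolved by 3 arrays.

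The comparison stated in the study's design sets Plakoglobin against β-catenin. The fitted difference, Plakoglobin minus β-catenin, was below 0 at 5 of the 6 sequences and above 0 at Cby1, while 51.6% of all promoters and 51.8% of the named ones had a difference above 0. Differences ran from -0.27 to 0.18. With the array number as a block, limma's lowest unadjusted p among these 6 differences was 0.462, and the lowest adjusted p was 0.895. The SEs, intervals and p below come from the fit that does not pair arrays by number. At Tcf7l2 the difference was -0.27 (SE 0.40, 95% interval -1.21 to 0.68). It was 0.12 without β-catenin array 2 and -0.74 with quantile normalization. At Tcf7l1 it was -0.11 (SE 0.20, interval -0.59 to 0.36), and at Tcf7 -0.07 (SE 0.22, interval -0.57 to 0.43). At Pygo2 it was -0.07 (SE 0.24, interval -0.64 to 0.49) under BC025640 and -0.04 (SE 0.21, interval -0.52 to 0.45) under BC025531. At Cby1 it was 0.18 (SE 0.26, interval -0.42 to 0.78), and -0.05 without Plakoglobin array 1. None passed in limma (adjusted p = 1 for each, unadjusted p from 0.501 to 0.87), where 0.0% of all promoters were called and 0.729% reached an unadjusted p under 0.05. These intervals do not show that the antibodies recovered the promoters alike, since each reaches to -0.42 or lower and to 0.36 or higher.

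The 3 Plakoglobin values and the 3 β-catenin values overlapped at 6 of 6 sequences. Over all promoters 5.14% had groups that did not overlap. Arrays of the same number resembled each other across antibodies, so differences were also taken number by number. At Tcf7 the Plakoglobin value was the lower one in all 3 pairs, with differences of -0.08, -0.02 and -0.12, as it was at 12.3% of all promoters. At Tcf7l1 the differences of pairs 1 to 3 were 0.01, -0.23 and -0.12. At Pygo2 they were 0.03, -0.35 and 0.10 under BC025640 and 0.22, -0.37 and 0.05 under BC025531, so both negative fitted differences came from the pair numbered 2. At Tcf7l2 they were 0.09, -0.91 and 0.02, so the negative fitted difference came from the pair numbered 2. At Cby1 they were 0.59, -0.02 and -0.03, and the positive fitted difference came from the pair numbered 1.

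**Figure D3:**
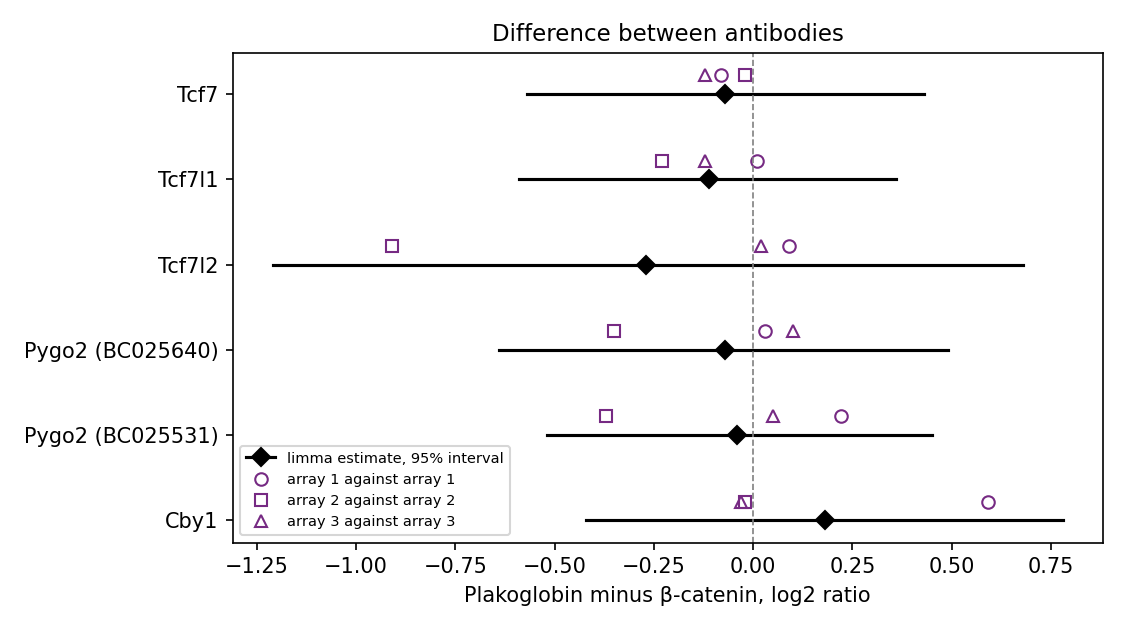
Plakoglobin minus β-catenin in log2 ratio (horizontal axis) at the 6 sequences (rows). Black diamonds with bars are limma's estimates with 95% intervals, from the fit that does not pair arrays by number. Open purple symbols are the differences between arrays of the same number. Every interval crosses 0, and the pair numbered 2 at Tcf7l2 (-0.91) and the pair numbered 1 at Cby1 (0.59) lie farthest from it.

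The authors also deposited peaks for each array, called with NimbleGen's algorithm and listed with a score and a false discovery rate that are the authors' own. Among the 6 accessions, 1 had a peak on a Plakoglobin array and 0 had one on a β-catenin array. Of all 22505 accessions, 30.0% had a peak on at least 1 of 3 Plakoglobin arrays and 13.4% on at least 1 of 3 β-catenin arrays, so neither count was above the background share. The peak was at Tcf7l1 on Plakoglobin array 2, where 13.4% of accessions had one, at chr6:73016131-73016430 in the deposited coordinates, with their genome build not given in the sources used here. Those coordinates therefore cannot be laid over the RefSeq window of Tcf7l1 shown above. The authors listed this peak for 2 accessions, that of Tcf7l1 among them. The peak was 300 bp long and spanned the deposited start site at 73016310 on the minus strand, from 120 bases upstream to 179 bases downstream. Its score of 1.13 ranked 2677 of the 2684 peaks on that array, where the median score was 3.03. Its false discovery rate was 0.138, where the list's median was 0.025, and 2418 peaks had a lower one. The peak's array was the one on which the mean over the whole Tcf7l1 sequence was -0.08, below the array median. At a false discovery rate of at most 0.1 the peak was no longer counted, so its call rests on the authors' wider limit.

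Other genes of the nuclear step of Wnt signalling were examined to place these values. The list of nuclear partners held 31 genes (corepressors, chromatin factors, catenins), of which 25 had 27 sequences. Their Plakoglobin mean was above 0 at 20 of 27, with a median of 0.23, and their β-catenin mean at 22 of 27, with a median of 0.22. Over all promoters the medians were 0.05 with Plakoglobin and 0.01 with β-catenin, and over the named ones 0.08 and 0.03. Of named promoters, 61.0% had a Plakoglobin mean above 0 and 55.5% a β-catenin mean above 0. Of the 27 sequences, 6 were above 0 on all 6 arrays, against 8.06% of the named ones. In limma 0 passed in any contrast. At an unadjusted p under 0.05 the list held 0 sequences in each contrast, and with the array number as a block it held 4 with Plakoglobin (Chd8, Ctbp2, Sox17 and Sox9) and 1 with β-catenin (Chd8), all below 0 and none passing after adjustment. Of all promoters, 10.8% with Plakoglobin and 9.21% with β-catenin reached that limit below 0 under the block, so neither count stands out. These 4 genes are named after their values were seen. Chd8 was 0.18 on Plakoglobin array 2 and Sox17 was 0.25 on Plakoglobin array 1, so not every array was below 0. The block leaves the spread between array numbers out of the error. A peak was listed at 6 of the 26 accessions with Plakoglobin, against 30.0% of all accessions, and at 1 with β-catenin, against 13.4%.

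The nuclear partners that came lowest in p for the difference were Bcl9l, the relative of Bcl9, and Tle4, a Groucho corepressor. Bcl9l averaged -0.17 ± 0.53 with Plakoglobin and 0.28 ± 0.13 with β-catenin, and the difference was -0.45 (SE 0.29, limma unadjusted p = 0.162, adjusted p = 1). The Bcl9l ratios on arrays 1, 2 and 3 were 0.08, -0.78 and 0.20 with Plakoglobin, where array 2 alone was low, and 0.20, 0.43 and 0.22 with β-catenin. The Tle4 sequence NM_011600 averaged -0.10 ± 0.19 with Plakoglobin and 0.22 ± 0.32 with β-catenin, and the difference was -0.32 (SE 0.23, limma unadjusted p = 0.209, adjusted p = 1). The other Tle4 sequence, AF141905, ran the other way, with 0.69 ± 0.87 with Plakoglobin and 0.11 ± 0.23 with β-catenin, a fitted difference of 0.58 (SE 0.50, limma unadjusted p = 0.277), and a peak on Plakoglobin array 3. The highest means over all arrays belonged to Ruvbl1, a chromatin-remodelling ATPase, and to Jup. One Ruvbl1 sequence averaged 1.12 ± 1.27 with Plakoglobin and 1.31 ± 2.54 with β-catenin, and its highest values were 2.45 and 4.23 on the arrays numbered 3. The other Ruvbl1 sequence has the same accession, and its means were -0.10 ± 0.17 with Plakoglobin and -0.09 ± 0.10 with β-catenin. Jup averaged 0.78 ± 0.96 with Plakoglobin and 0.24 ± 0.36 with β-catenin, with 1.89 on Plakoglobin array 3 as its highest value.

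Of 20 Wnt target genes 17 had a sequence, 18 sequences in all, Tcf7 among them. Sox9 is also on the list of nuclear partners, with the same sequence, so its values count in both lists. The Plakoglobin mean was above 0 at 13 of 18, with a median of 0.09, and the β-catenin mean at 10 of 18, with a median of 0.04. In limma 0 passed in any contrast, and 0 reached an unadjusted p under 0.05 without the block. With it, Sox9 reached that limit below 0 with Plakoglobin, and a Ccnd1 sequence reached it below 0 with β-catenin and above 0 for the difference, none of them passing after adjustment. These limits were reached by 10.8%, 9.21% and 0.71% of all promoters. Peaks were listed at 5 of the 17 accessions with Plakoglobin and at 1 with β-catenin, against the same 30.0% and 13.4% of all accessions. Sp5, a transcription factor that is a direct Wnt target, had the highest mean, with 0.30 ± 0.19 with Plakoglobin and 0.44 ± 0.43 with β-catenin, and its peak was on β-catenin array 1. Jag1, a Notch ligand, followed with 0.33 ± 0.34 with Plakoglobin and 0.26 ± 0.29 with β-catenin. The smallest p for the difference belonged to Ccnd1, which encodes cyclin D1, and Mmp7, a matrix metalloproteinase. The Ccnd1 sequences averaged 0.57 ± 0.68 and 0.18 ± 1.29 with Plakoglobin, against 0.00 ± 0.13 and -0.57 ± 0.90 with β-catenin. Their fitted differences were 0.57 (SE 0.39, limma unadjusted p = 0.181) and 0.75 (SE 0.68, limma unadjusted p = 0.308). On Plakoglobin arrays 1, 2 and 3 the ratios were 1.27, -0.08 and 0.52 for the first and -0.04, -0.99 and 1.57 for the second. The second was lowest on β-catenin array 2, at -1.6. Mmp7 averaged 0.45 ± 1.04 with Plakoglobin and -0.11 ± 0.40 with β-catenin, carried by 1.63 on Plakoglobin array 3. Its fitted difference was 0.56 (SE 0.52, limma unadjusted p = 0.312).

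**Figure D4:**
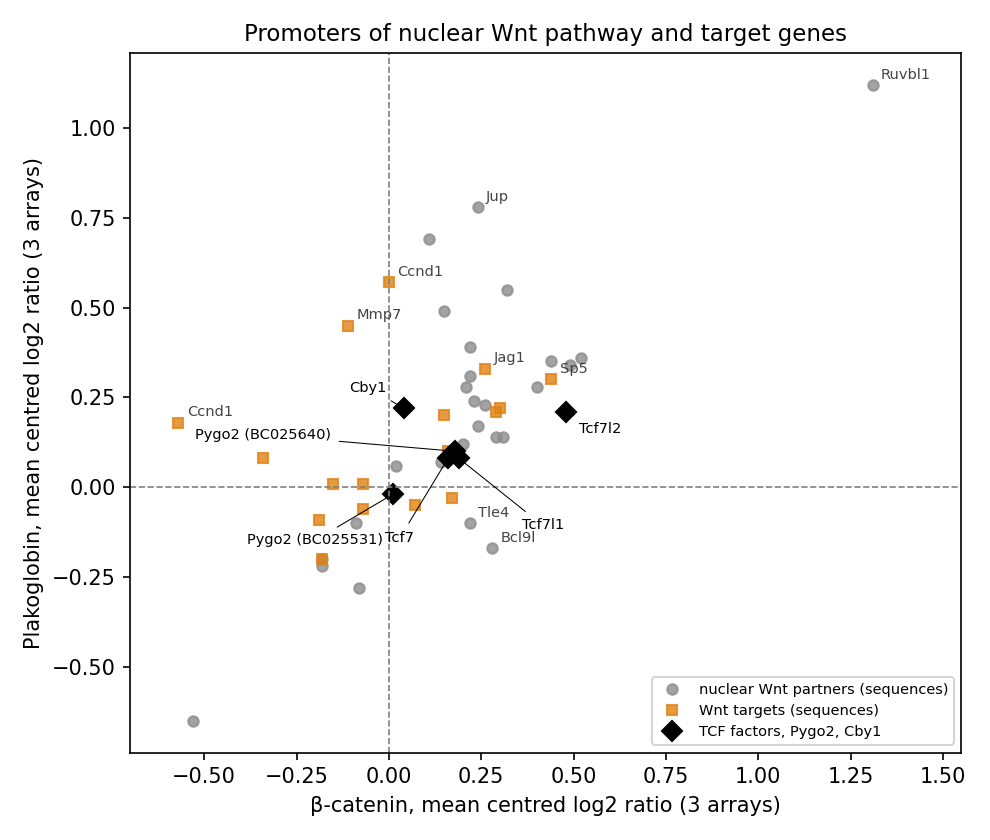
Mean centred log2 ratio over 3 arrays with Plakoglobin (vertical axis) against that with β-catenin (horizontal axis). Black diamonds are the 6 sequences of the TCF factors, Pygo2 and Cby1, grey circles the nuclear Wnt partners and orange squares the Wnt targets. The black diamonds lie between -0.02 and 0.22 with Plakoglobin and between 0.01 and 0.48 with β-catenin, inside the spread of the nuclear partners, and Tcf7l2 lies above the highest β-catenin mean of the targets (Sp5, 0.44).

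The pattern over the 6 arrays varied most at Tcf7l2, and the named promoters most like it were those of Siah2, a ubiquitin ligase (Pearson r = 0.999), Csf2ra, a cytokine receptor chain (0.998), and Alg5, a glycosyltransferase (0.998). Each of the 3 had its highest value on β-catenin array 2, 0.68 at Siah2, 1.63 at Csf2ra and 1.63 at Alg5. Such a likeness was common, since 580 of 16838 named sequences reached a correlation of at least 0.95 with Tcf7l2. The 6 points share 3 array numbers, so the correlations are descriptions only.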

How the data were processed

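The authors deposited, per the file headers, 1 log2 ratio (ChIP over input) per promoter sequence and array, summarised over its probes, with no probe normalization stated in the sources used here. They also deposited peak lists from NimbleGen's peak algorithm, 1 per array without pooling, each peak with a score and a false discovery rate (q-value). Of 26275 sequences 75 had no value. Each array was centred on its median, and a group-means model over all 6 arrays was fitted with limma 3.58.1 in R 4.3.3 (eBayes with trend, two-sided, Benjamini-Hochberg over 26200 promoters, threshold 0.05), after a test on simulated data. Arrays are few, and their number limits the precision. Python 3.11.15, pandas 2.3.3, numpy 2.4.6 and matplotlib 3.10.9 did the rest. Gene names were updated through RefSeq tables (GRCm38.p6) or, for 813 sequences, kept from the file, so that 16844 had a name.

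The file headers number the experiments alike for both antibodies. Deviations from the group means correlated at 0.20, 0.23 and 0.22 between same-numbered arrays and from -0.15 to -0.05 otherwise, so the numbers were taken to pair the arrays. The main fit does not use this pairing, which enters only the number-by-number differences and the fits with a block. Members, lists and tests were chosen with earlier results of these data known. Every sequence of the members was named. From each list the 2 genes with the smallest p for the difference and the 2 with the highest mean were named, and for likeness the 3 closest named promoters.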

Additional observations from a re-analysis of the deposited data

How the results depend on the processing

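Of 234 values of the 6 sequences under 13 alternatives each, 217 kept their sign and none passed (lowest limma adjusted p 0.295). Of the 17 sign changes, 6 were not from leaving out an array: Pygo2 (BC025531) with Plakoglobin became 0.27 without centring, 0.06 with quantile normalization and 0.07 with MAD scaling, its difference became 0.05 with quantile normalization and 0.06 with MAD scaling, and Cby1 with β-catenin became -0.04 with the median over probes. The other 11 came from leaving out 1 array. With Plakoglobin the values then ran from -0.12 to 0.16 at Pygo2 (BC025531) and from -0.03 to 0.15 at Tcf7 (0.16 and -0.03 without Plakoglobin array 2) and from -0.01 to 0.35 at Cby1 (-0.01 without Plakoglobin array 1). With β-catenin they ran from -0.01 to 0.28 at Pygo2 (BC025640) (-0.01 without β-catenin array 2) and from -0.04 to 0.05 at Pygo2 (BC025531) (-0.04 without β-catenin array 3). The difference ran from -0.17 to 0.12 at Pygo2 (BC025640), from -0.19 to 0.02 at Tcf7 and from -0.48 to 0.12 at Tcf7l2, each highest without β-catenin array 2. It ran from -0.13 to 0.15 at Pygo2 (BC025531) (0.15 without Plakoglobin array 2, 0.02 without β-catenin array 3) and from -0.05 to 0.31 at Cby1 (-0.05 without Plakoglobin array 1). Quantile normalization also moved, with no sign change, Tcf7 to 0.03 with Plakoglobin, and the difference to -0.20 at Tcf7l1, -0.14 at Tcf7 and 0.08 at Cby1. The count of these sequences with a difference above 0, 1 as reported, was 2 with quantile normalization, 2 with MAD scaling and 0 to 4 leaving out 1 array (0 without Plakoglobin array 1, 4 without β-catenin array 2). The Plakoglobin peak count fell to 0 at a false discovery rate of at most 0.1 or 0.05 and with the 330 top peaks of each array, and was 0 to 1 leaving out 1 array (0 without Plakoglobin array 2). Wnt target sequences above 0 with β-catenin were 16 without centring. With Plakoglobin they were 8 to 15 leaving out 1 array (8 without Plakoglobin array 3). These list counts were added after seeing the data. With the replicate number as a block 0 promoters passed, as without it. Under the block, promoters at an unadjusted p under 0.05 were 268 above and 2834 below the median with Plakoglobin (429 and 561 without it), 55 and 2414 with β-catenin (68 and 392) and 186 and 121 for the difference (149 and 42). The tests against the median under the block leave out the spread between array numbers. Without centring these splits were 3356 and 1 with Plakoglobin, 1634 and 18 with β-catenin and 159 and 15 for the difference. With β-catenin the splits about the median were 382 and 460 with quantile normalization, 254 and 872 with MAD scaling and 54 and 119 with robust eBayes, which gave 324 and 220 with Plakoglobin. Without the eBayes trend the Plakoglobin split was 848 and 357 and the β-catenin split 310 and 275. Without Plakoglobin array 1 or 3 the Plakoglobin split was 633 and 284 or 626 and 207, and without β-catenin array 2 it was 86 and 1200. The difference gave 76 and 120 without β-catenin array 1 and 35 and 89 without β-catenin array 2. Leaving out 1 array, the totals ran from 493 to 1286 with Plakoglobin, from 214 to 768 with β-catenin and from 124 to 436 for the difference. The cause was not tested. Every printed interval, from the fit without the block, holds 0. With the block the lowest unadjusted limma p for the 6 differences was 0.462. With 3 arrays per antibody none of these differences could therefore be told from 0.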

Other observations

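The 10 other promoters next to these in the array's numbering are given as values, looked at by position after values were seen. Shc1, which encodes a signalling adaptor and precedes Pygo2, had 0.29, 1.93 and 0.40 with Plakoglobin (arrays 1, 2 and 3) and 0.14, 0.43 and 0.06 with β-catenin in the same order, above 0 on all 6, with peaks on Plakoglobin arrays 1 and 2. Kcmf1, a ubiquitin ligase gene that follows Tcf7l1, had -0.06, 3.25 and -0.13 on the Plakoglobin arrays, with peaks on arrays 2 and 3, and 0.00, 0.60 and -0.87 on the β-catenin arrays. Skp1, a subunit of SCF ubiquitin ligases that precedes Tcf7, had 0.05, 1.51 and -0.12 with Plakoglobin (arrays 1, 2 and 3) and 0.02, -0.46 and -0.28 with β-catenin in the same order, with a peak on Plakoglobin array 2. Tomm22, a mitochondrial import receptor gene that follows Cby1, had 0.22, 0.22 and 0.12 with Plakoglobin (arrays 1, 2 and 3) and 0.12, 0.43 and 0.26 with β-catenin in the same order, above 0 on all 6 without a peak. AK028858, unnamed here and following Pygo2, had 3.85, -0.15 and 0.06 on the Plakoglobin arrays, with a peak on array 1, and 0.14, 0.49 and 0.03 on the β-catenin arrays. Vdac1, a mitochondrial channel gene that follows Tcf7, had 0.32, -0.22 and -0.02 on the Plakoglobin arrays and 0.05, 0.00 and -0.08 on the β-catenin arrays. Tgoln1, a trans-Golgi protein gene that precedes Tcf7l1, had -0.07, 0.24 and 0.04 on the Plakoglobin arrays and 0.02, 0.36 and 0.09 on the β-catenin arrays. The remaining neighbours, unnamed here, had their highest value at 0.37 (AK039683, before Cby1), 0.32 (AK015010, before Tcf7l2, with a peak on Plakoglobin array 1) and 0.88 (AK083427, after Tcf7l2). The highest value lay on Plakoglobin array 1 at AK028858 and Vdac1, and on an array numbered 2 at all the other neighbours. Arrays numbered 2 were the noisiest with both antibodies. No promoter in the series passed limma's test.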
